A study of Mus musculus with 12 samples.

Results

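The constitutive deletion of Ddx5 in cardiac muscle was examined in 6 of the 12 libraries of the series, all made from the left ventricle of untreated male mice 8 weeks old. The 3 mCKO libraries carry the genotype label DDX5fl/fl MYH6Cre+, and the 3 CTR1 libraries the label Ddx5flox/flox. The members are these 6 libraries, chosen by their titles and genotype labels, with every gene of their table as a readout. Both groups share the floxed Ddx5 alleles, and only mCKO carries Cre, so an effect of the Cre transgene and the loss of Ddx5 cannot be told apart. Cre is driven by Myh6, the gene of the alpha myosin heavy chain of cardiac muscle, so other cells of the ventricle are not targeted by design. The other 6 libraries, used here only to look up genes chosen in mCKO, come from Ddx5flox/flox Myh6MerCreMer mice (iCKO) and Ddx5flox/flox mice (CTR2), both given tamoxifen intraperitoneally at 20 mg/kg/day for 5 days. The labels give no background strain and do not state whether the libraries of a group come from different mice, so the tests measure the spread between these libraries.

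DDX5 is a DEAD-box RNA helicase, an enzyme that uses ATP to remodel RNA and RNA-protein complexes. It takes part in transcription, in the processing of microRNA precursors and in the splicing of pre-mRNA, and it is a coactivator of several transcription factors, p53 among them. The adult ventricle lives mainly on fatty acid oxidation and contracts through calcium cycling between the sarcolemma and the sarcoplasmic reticulum. Under strain it commonly raises natriuretic peptides and lowers metabolic genes. In bulk tissue such as this, fewer cells of a type and less RNA per cell cannot be told apart.

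Each library held between 19682268 and 22664459 gene counts, and 13353 of the 17260 genes in the table had enough counts to be tested. Levels are given as CPM (gene counts normalised for library size by TMM), always in the order of replicates 1, 2 and 3. A library with 0 counts of a gene allows up to 3 counts, which is 0.126 to 0.157 CPM, for counting error only. The groups were told apart on the second axis only. The first principal component held 59.8% of the variance and placed replicate 3 of both groups at 39.1 and 49.8, far from the other 4 libraries. The second component held 22.1% and separated mCKO from CTR1 in all 3 replicates.

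**Figure D1:**
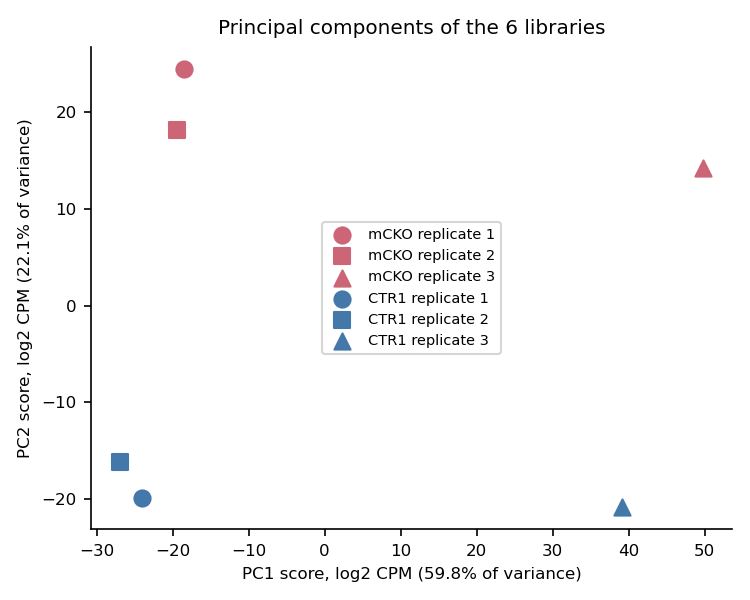
Scores of the 6 libraries on the first 2 principal components of log2 CPM, with colour for the group and shape for the replicate number. Replicate 3 of both groups lies to the right at 39.1 and 49.8 on PC1 (59.8% of variance), and the mCKO libraries lie above the CTR1 libraries on PC2 (22.1%).

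Replicate 3 stood apart from replicates 1 and 2 in both groups, and for many genes in the same direction. In CTR1, 1079 genes stood at least 2-fold away from the mean of replicates 1 and 2, 562 higher and 517 lower, and in mCKO 1211 genes did, 671 higher and 540 lower. Of these, 680 did so in both groups in the same direction, whereas replicates 1 and 2 were at least 2-fold apart for 238 genes in CTR1 and 233 in mCKO. Among genes of average log2 CPM of at least 3, those highest in replicate 3 included Upk3b of the mesothelium (1.47, 3.13 and 12.3 CPM in CTR1, and 4.16, 1.66 and 28.6 CPM in mCKO). They also included Cytl1, a secreted cytokine-like protein, at 5.43, 3.92 and 36.2 CPM in CTR1 and 6.0, 3.77 and 36.6 CPM in mCKO. Genes lowest in replicate 3 included Myh7b, a slow myosin heavy chain with 223, 221 and 27.6 CPM in CTR1 and 206, 246 and 26 CPM in mCKO, and several interferon-inducible GTPases described further on. Neither Cytl1 nor Myh7b was called between the groups, so for them the replicate number was the larger difference.

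The deviation of replicate 3 also moved with exon length. For genes with under 1 kb of exons its median was 0.41 on the log2 scale in CTR1 and 0.55 in mCKO, and for genes over 8 kb it was -0.20 and -0.24. Between mCKO and CTR1 the medians with the block were 0.02 and -0.02 in the same classes. Within replicate number 3 they fell from 0.12 for the shortest class to -0.05 for the longest, and within replicate number 1 they ran the other way, from -0.08 to 0.01. What the replicate numbers mark is not in the labels, and the part of RNA quality, batch or dissection in the deviation was not tested.

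**Figure D2:**
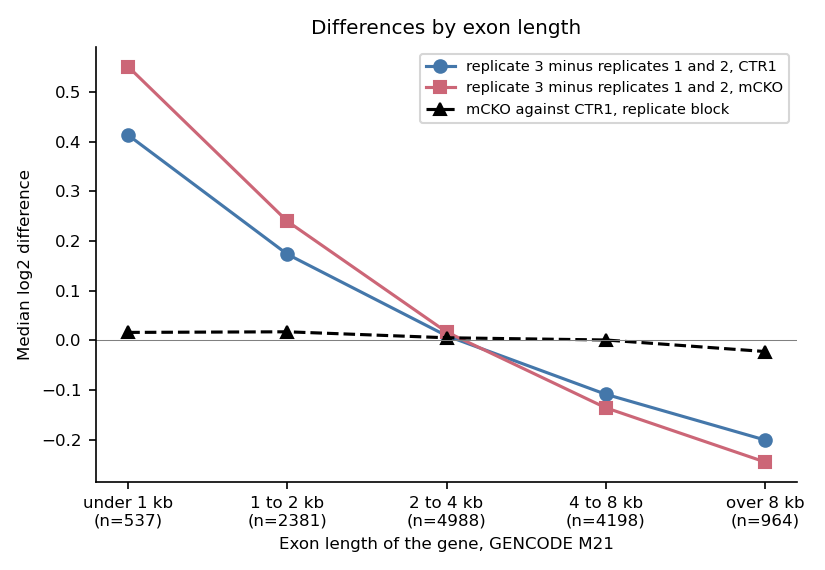
Median log2 differences over genes grouped by exon length, for replicate 3 against the mean of replicates 1 and 2 in each group, and for mCKO against CTR1 with the replicate number as a block. The replicate 3 lines fall from 0.41 (CTR1) and 0.55 (mCKO) below 1 kb to -0.20 and -0.24 over 8 kb, and the mCKO line stays between -0.02 and 0.02.

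The comparison was therefore made with and without the replicate number as a block, by edgeR's quasi-likelihood test with Benjamini-Hochberg adjustment at 0.05 over all tested genes. With the block, 978 genes were called higher in mCKO (7.32% of those tested) and 861 lower (6.45%). Without the block no gene was called (0%), although 1164 genes had an unadjusted p under 0.05, and the smallest adjusted p was 0.069. In that fit DESeq2 called 176 genes higher and 134 lower, and limma-voom called 0. With both replicate 3 libraries left out and no block, 514 genes were called higher (3.85%) and 526 lower (3.94%). Of the block calls, 440 that rose and 484 that fell were called again in that fit, and 0 had the opposite sign. Levels in the 3 mCKO libraries lay wholly above the 3 CTR1 libraries for 1027 tested genes (7.69%) and wholly below for 975 (7.3%). In what follows "rose", "fell" and "called" refer to the fit with the block, and genes that were not called without the replicate 3 libraries are named as such. Differences are log2 fold changes, and the value after ± is a standard error derived from the test. It is the absolute log2 fold change divided by the square root of the quasi-likelihood F statistic. None of these genes was called without the block.

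Higher and lower calls differed in size and in the abundance of the genes. The median higher call was 0.56 and 454 of the 978 were at least 1.5-fold, 172 at least 2-fold and 25 at least 4-fold. The median lower call was -0.35, with 123 of the 861 at least 1.5-fold, 26 at least 2-fold and 1 at least 4-fold. Among tested genes of average log2 CPM between 1 and 3, 10.3% were called higher and 2.06% lower. Among genes above 7, 4.79% were called higher and 18.2% lower. Smaller differences are detectable at higher counts, and the share of lower calls was larger in the more abundant classes while that of higher calls was not. Scaling by library sizes alone, with the block, moved the median of all tested genes from 0.00 to 0.08 and gave 1581 higher and 474 lower calls.

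Ddx5 (Entrez 13207, chromosome 11) was lower in every mCKO library. It was measured at 636, 636 and 397 CPM in CTR1 and at 233, 232 and 218 CPM in mCKO, so the mCKO mean was 40.9% of the control mean. The level in CTR1 replicate 3 was below the other controls, while the mCKO libraries lay close together. The difference was -1.26 ± 0.12 (adjusted p = 0.0019, edgeR's quasi-likelihood test with the block), -1.29 (adjusted p = 0.17) without the block and -1.45 (adjusted p = 8.7e-06) without both replicate 3 libraries. An exact two-sided permutation test over the 6 libraries gave p = 0.1, the smallest that 3 against 3 allows. Counts over the whole gene include RNA of cells that Myh6 does not target, and the exons between the loxP sites are not named in the labels.

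The genes beside Ddx5 on chromosome 11 were read beside it. Polg2, an accessory subunit of the mitochondrial DNA polymerase that starts 818 bp from Ddx5, differed by 0.32 ± 0.17 (adjusted p = 0.23). Cep95, a centrosomal gene that overlaps the locus, differed by -0.11 ± 0.11 (adjusted p = 0.57). Milr1, an inhibitory receptor of mast cells and other myeloid cells 11561 bp away, rose by 0.90 ± 0.27 (adjusted p = 0.047), from 1.03, 0.888 and 1.25 CPM to 1.80, 1.91 and 2.23 CPM, and was not called without the replicate 3 libraries (adjusted p = 0.12). Pecam1, Smurf2 and Kpna2 were not called. Ddx17, the paralog with overlapping functions, was measured at 261, 273 and 143 CPM in CTR1 and 337, 326 and 206 CPM in mCKO and rose by 0.38 ± 0.07. Within each replicate number mCKO was above CTR1, but the groups overlapped because of the low replicate 3 levels.

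**Figure D3:**
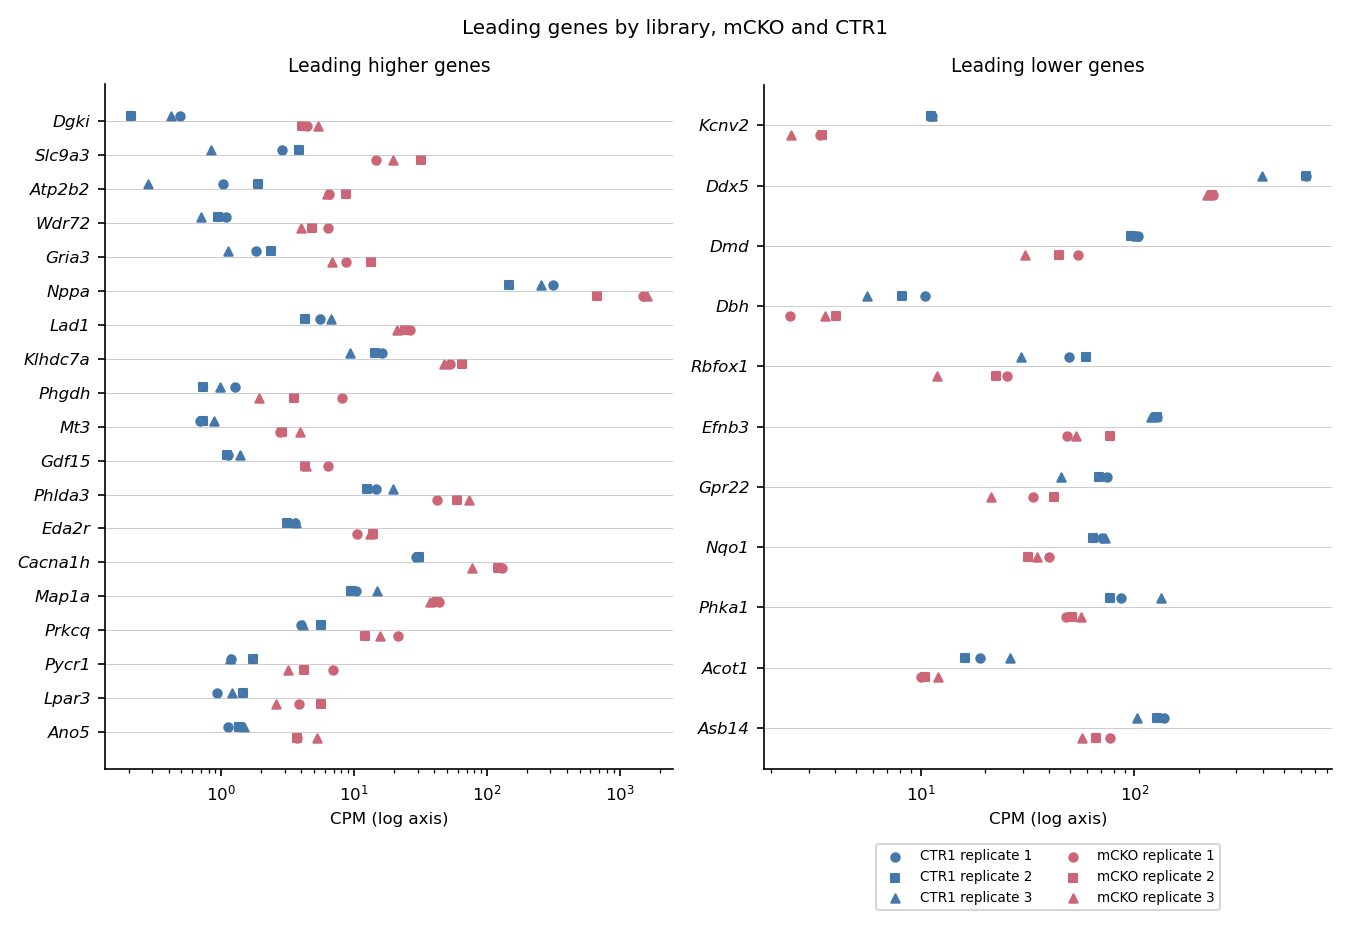
CPM of 19 of the 20 leading higher and 11 of the 20 leading lower genes, those named in the text, in each of the 6 libraries (log axis), colour for the group and shape for the replicate number. For each gene shown the 3 mCKO libraries lie wholly on one side of the 3 CTR1 libraries, as the choice of these genes required.

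The 20 leading higher genes were the called genes with the largest fold and groups that do not overlap. The largest difference was in Dgki, a diacylglycerol kinase that converts the messenger diacylglycerol into phosphatidic acid. Dgki was near the detection limit in CTR1 (0.489, 0.209 and 0.417 CPM) and at 4.42, 4.07 and 5.33 CPM in mCKO, a rise of 3.61 ± 0.28 (adjusted p = 4.8e-05). Prkcq, a protein kinase C isoform activated by the same messenger, went from 3.96, 5.59 and 4.13 CPM to 21.2, 12 and 15.7 CPM (1.82 ± 0.24). Several other leading genes encode membrane channels and transporters that the ventricle holds at low levels. Atp2b2, a plasma membrane calcium pump, rose from 1.03, 1.88 and 0.278 CPM to 6.48, 8.70 and 6.26 CPM (2.83 ± 0.33). Gria3, a subunit of AMPA-type glutamate receptors, rose from 1.81, 2.35 and 1.11 CPM to 8.63, 13.5 and 6.76 CPM (2.45 ± 0.16). For both Atp2b2 and Gria3 the lowest mCKO library was at least 2-fold above the highest control.

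Cacna1h, the pore of a T-type calcium channel found in the fetal ventricle and in conduction tissue, was raised in every mCKO library. Its levels were 29.1, 30.5 and 30.4 CPM in CTR1 and 129, 121 and 76.4 CPM in mCKO, a rise of 1.82 ± 0.18 (adjusted p = 0.0069). The mCKO replicate 3 level was the lowest of its group and still above every control, as the choice of leading genes required. Slc9a3, a sodium-proton exchanger best known from gut and kidney epithelium, rose from 2.84, 3.81 and 0.834 CPM to 14.6, 31.9 and 19.6 CPM (3.17 ± 0.39) and was not called without the replicate 3 libraries (adjusted p = 0.081). Map1a, a microtubule-associated protein, rose by 1.82 ± 0.17 and Lad1, a filament-anchoring protein of basement membranes, by 2.11 ± 0.15. Klhdc7a, a kelch-domain gene, rose from 16, 14.4 and 9.22 CPM to 52.5, 64.6 and 47.4 CPM (2.07 ± 0.12). Lpar3, a receptor for lysophosphatidic acid, rose from 0.929, 1.46 and 1.21 CPM to 3.86, 5.63 and 2.56 CPM (1.70 ± 0.25).

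The leading lower genes encode proteins of mixed function, among them a channel subunit, a splicing factor, receptors, ligands and enzymes. Kcnv2, a silent subunit that modifies voltage-gated potassium channels, showed the largest fall and stood at 11.3, 11.2 and 11.3 CPM in CTR1 and 3.37, 3.47 and 2.48 CPM in mCKO (-1.87 ± 0.15). Rbfox1, a splicing factor of muscle and brain, was measured at 49.5, 59.6 and 29.6 CPM in CTR1 and 25.4, 22.6 and 12 CPM in mCKO (-1.22 ± 0.09, adjusted p = 4.8e-05). Replicate 3 was the lowest of each group for Rbfox1, and every mCKO library lay below every control, as the choice of leading genes required. Efnb3, an ephrin ligand, fell from 128, 127 and 119 CPM to 48.3, 76.7 and 53.6 CPM (-1.10 ± 0.12), a change not called without the replicate 3 libraries (adjusted p = 0.11). Gpr22, an orphan receptor of the heart and brain, fell from 74.6, 68.6 and 45.4 CPM to 33.4, 41.9 and 21.4 CPM (-0.98 ± 0.09). Asb14, an ankyrin-repeat adaptor of ubiquitin ligases in muscle, fell from 138, 128 and 103 CPM to 76.8, 66.3 and 56.7 CPM (-0.88 ± 0.06, adjusted p = 3.1e-05). Dbh, the enzyme that makes noradrenaline from dopamine, fell from 10.5, 8.15 and 5.61 CPM to 2.45, 4.02 and 3.57 CPM (-1.25 ± 0.26).

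The leading genes were then looked up in the tamoxifen-induced deletion, whose libraries took no part in choosing them. There 3420 of 13548 tested genes were called higher (25.2%) and 2648 lower (19.5%), so calls are frequent in that comparison. Of the 20 leading higher genes 18 were tested in iCKO, where 10 were called higher and 4 lower. Of the 19 leading lower genes other than Ddx5 all were tested, 16 were called lower and 0 higher. Higher calls in both models included Nppa (2.37 in mCKO and 4.53 in iCKO), Phlda3 (1.89 and 2.68) and Map1a (1.82 and 2.99). Lower calls in both models were larger in iCKO for Asb14 (-0.88 and -6.25), Kcnv2 (-1.87 and -6.72) and Rbfox1 (-1.22 and -3.49). The difference between the models was not tested for these genes. The 4 genes higher in mCKO and lower in iCKO were Cacna1h, Prkcq, Wdr72 and Ano5.

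Over all block calls, 560 of the 961 higher genes tested in iCKO were called higher there and 78 lower. Of the 859 lower genes tested, 565 were called lower and 26 higher. Ndrg4, a gene that supports cardiomyocyte growth, was an abundant example of opposite calls. It was measured at 736, 790 and 503 CPM in CTR1 and 1381, 1456 and 888 CPM in mCKO (0.87 ± 0.06, adjusted p = 3.1e-05), and it fell in iCKO by 1.27 on the log2 scale. Ccng1, a cyclin that p53 activates, rose from 972, 983 and 1008 CPM to 1215, 1283 and 1355 CPM in mCKO (0.38 ± 0.06) and fell in iCKO by 1.33. In mCKO neither gene had a library that overlapped the controls.

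**Figure D4:**
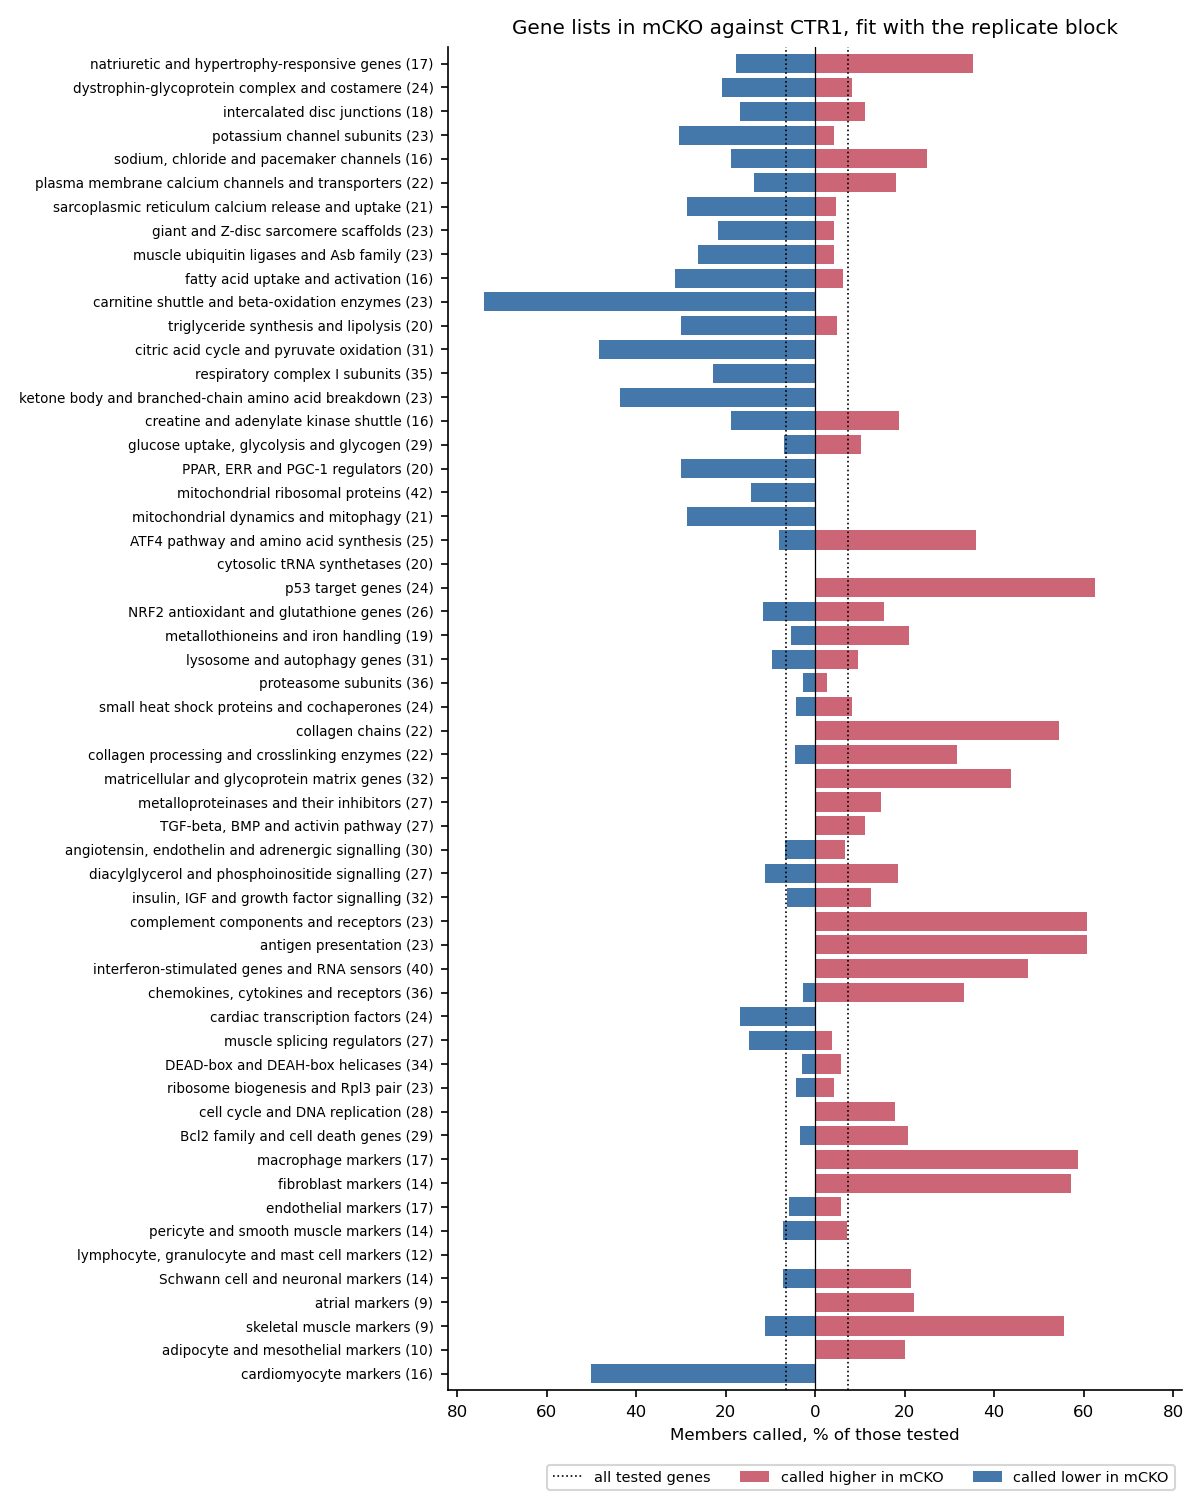
Share of the tested members of 56 gene lists called higher (right) or lower (left) in mCKO by the fit with the replicate block, with the number tested in brackets. Dotted lines mark the shares of all tested genes, 7.32% higher and 6.45% lower. Lists of energy metabolism extend to the left and lists of immune and matrix genes to the right.

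Lists are described by the members called in each direction, their median and the same over all tested genes, without a test of the list. Over all tested genes 7.32% were called higher and 6.45% lower. Above average log2 CPM 7 these shares were 4.79% and 18.2%. Of the list directions with 0 calls by edgeR with the block, each had between 0 and 2 members at an unadjusted p under 0.05. In these directions DESeq2 with the block called 0 members and limma-voom called 2.

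Genes responsive to hypertrophy moved in both directions. Of 17 tested members 6 rose and 3 fell, with a median of 0.13 against 0.00 over all tested genes, and 4 were higher and 2 lower without the replicate 3 libraries. Nppa, atrial natriuretic peptide, was at 315, 146 and 253 CPM in CTR1 and 1491, 666 and 1606 CPM in mCKO (2.37 ± 0.10, adjusted p = 1.0e-05). Every mCKO library exceeded every control by more than 2-fold, yet replicate 2 was low in both groups, and Nppa was not called without the replicate 3 libraries (2.22, adjusted p = 0.28). An antisense gene covers 61.5% of the exonic bases of Nppa, and whether the counting used strand is not given in the sources used here. Ankrd1, a stress-responsive protein of the sarcomere and nucleus, rose from 1214, 890 and 542 CPM to 2559, 2178 and 1160 CPM. Mybpc2, the fast skeletal form of myosin binding protein C, rose from 21.9, 15.8 and 18 CPM to 34.7, 41.5 and 41.2 CPM (1.08 ± 0.13). Fhl1, a LIM-domain protein of the sarcomere, fell from 146, 141 and 233 CPM to 110, 99.3 and 153 CPM.

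Atrial tissue was checked because Nppa is also an atrial marker. Of 9 tested atrial markers 2 rose, Nppa and the peptide-amidating enzyme Pam, and neither was called without the replicate 3 libraries (adjusted p = 0.073 for Pam). The summed atrial markers ranged from 844 to 1179 CPM in CTR1 and from 1597 to 2698 CPM in mCKO, Nppa included. Sln, which encodes the atrial calcium pump inhibitor sarcolipin, was at 3.42 CPM in CTR1 replicate 1 and at 0 in the other 5 libraries. Myl7, the atrial light chain, was at 10.7 CPM in CTR1 replicate 1 and between 0.131 and 1.60 CPM in the other 5 libraries. Myl4, the other atrial light chain, was at 11.9, 2.19 and 3.66 CPM in CTR1 and 2.37, 4.42 and 5.25 CPM in mCKO, so it was lower in mCKO in replicate number 1 and higher in numbers 2 and 3, and it was not called. Without both replicate 1 libraries, with the block, Myl4 was higher in mCKO by 0.73 on the log2 scale (adjusted p = 0.041 by edgeR). Over the 9 tested markers 6 differences were above 0 and 3 below, with medians of 0.02, 0.38 and 0.38 in replicate numbers 1, 2 and 3. The part of atrial tissue in the level of Nppa was not tested.

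Among potassium channel subunits 7 of 23 fell (30.4%) and 1 rose (4.35%), with a median of -0.14. Kcnk3, a background potassium channel, fell from 484, 457 and 459 CPM to 362, 344 and 350 CPM (-0.41 ± 0.06), with no overlap. Abcc9 and Abcc8, the SUR2 and SUR1 regulatory subunits of ATP-sensitive potassium channels, moved in opposite directions. Abcc9 fell from 735, 743 and 472 CPM to 526, 598 and 361 CPM (-0.39 ± 0.06) and Abcc8 rose from 91.8, 87.8 and 44.4 CPM to 116, 112 and 59 CPM (0.36 ± 0.06). Both were low in replicate 3 of each group, and the shift was visible within each replicate number. Kcna7, a voltage-gated channel, fell by 0.62 on the log2 scale.

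Sodium, chloride and pacemaker channels gave 4 higher and 3 lower calls of 16 (median 0.02). Hcn2, a pacemaker channel also found in ventricular muscle, rose from 39.2, 51.3 and 41.1 CPM to 67.9, 76.5 and 63.6 CPM (0.67 ± 0.07), with no overlap between the groups. Clcn1, the chloride channel of skeletal muscle, fell from 36.6, 35.4 and 9.92 CPM to 8.15, 13.6 and 2.94 CPM (-1.76 ± 0.15). For Clcn1 the groups overlapped because CTR1 replicate 3 lay between the mCKO levels, and replicate 3 was the lowest library of each group.

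Calcium genes of the sarcolemma gave 4 higher and 3 lower calls of 22 (18.2% and 13.6%, median -0.03). Those of the sarcoplasmic reticulum gave 1 higher and 6 lower of 21 (4.76% and 28.6%, median -0.14). At the sarcolemma Cacna1c, the L-type channel that triggers contraction, fell from 489, 559 and 290 CPM to 436, 398 and 186 CPM (-0.43 ± 0.09). Slc8a1, the sodium-calcium exchanger, fell from 671, 597 and 509 CPM to 468, 530 and 396 CPM (-0.35 ± 0.07). The T-type Cacna1h and the pump Atp2b2 rose, so the carriers of calcium across the membrane did not share a direction. In the reticulum Ryr2, the release channel, fell from 2489, 2480 and 1674 CPM to 1779, 1659 and 1170 CPM, and Atp2a2, the SERCA2 uptake pump, from 19423, 21477 and 17044 CPM to 15969, 16342 and 11443 CPM. Jph2, which holds the reticulum against the cell membrane, fell from 967, 954 and 786 CPM to 717, 781 and 546 CPM (-0.41 ± 0.07). Atp2a2 and Jph2 did not overlap between the groups, and without the replicate 3 libraries 4 reticulum genes were lower.

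Dmd, one of the leading lower genes, encodes dystrophin, the link between the cytoskeleton and the membrane glycoprotein complex. Dmd stood at 104, 96.1 and 102 CPM in CTR1 and 54.6, 44.3 and 30.8 CPM in mCKO (-1.25 ± 0.17, adjusted p = 0.014). All mCKO libraries were below all controls, as the choice of leading genes required. Without the replicate 3 libraries the difference was -1.02 (adjusted p = 0.0017 by edgeR). Of 24 genes of the dystrophin complex and costamere 5 fell (20.8%) and 2 rose (8.33%), with a median of -0.07. Scaling by library sizes alone, with the block, gave 2 lower and 2 higher calls among them. Sntb1, syntrophin beta 1, rose from 13.4, 12.3 and 6.21 CPM to 18.8, 33.7 and 16.3 CPM (1.10 ± 0.20) and was not called without the replicate 3 libraries (adjusted p = 0.15). Cav3, the caveolin of muscle, fell from 107, 106 and 127 CPM to 86.9, 96.2 and 100 CPM, and was not called in that fit either (adjusted p = 0.095).

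Genes with long genomic spans were examined because Dmd is among the longest genes of the mouse. Of 358 tested genes spanning over 300 kb, 29 were called higher and 40 lower, 8.10% and 11.2%, and without the replicate 3 libraries 16 were higher and 18 lower.

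At the intercalated disc, where cardiomyocytes join, 2 of 18 genes rose and 3 fell (11.1% and 16.7%, median 0.03). Plekha7, an adaptor of adherens junctions, rose from 5.72, 6.89 and 4.73 CPM to 15.9, 16.2 and 11.1 CPM (1.31 ± 0.12, adjusted p = 1.2e-04). Ctnna3, the alpha catenin of heart muscle, fell from 31.9, 23.1 and 25.1 CPM to 19.5, 14.1 and 13.5 CPM (-0.77 ± 0.09) and was not called without the replicate 3 libraries (adjusted p = 0.11). Ctnnb1, beta catenin, fell from 515, 510 and 563 CPM to 426, 440 and 467 CPM (-0.25 ± 0.06). Ncam1, an adhesion molecule of nerve and of stressed cardiomyocytes, rose from 10.5, 12.2 and 8.71 CPM to 29, 28 and 25.5 CPM (1.40 ± 0.10, adjusted p = 3.3e-05). It is not in the disc list and is counted with the Schwann cell and neuronal markers below. The Ncam1 levels in mCKO were at least 2-fold above the highest control.

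Scaffolds of the sarcomere gave 1 higher and 5 lower calls of 23 (4.35% and 21.7%, median -0.13). Muscle ubiquitin ligases with the Asb family gave 1 higher and 6 lower of 23 (4.35% and 26.1%, median -0.12). Lower calls made up 6.45% of all tested genes and 18.2% of those above average log2 CPM 7. Cmya5, a large desmin-binding protein of the Z-disc and costamere, fell from 1187, 1016 and 1017 CPM to 758, 672 and 680 CPM (-0.61 ± 0.06, adjusted p = 1.7e-04), and antisense genes cover 21.7% of its exons. Ttn, titin, was low in replicate 3 of both groups, at 6105, 5614 and 1867 CPM in CTR1 and 5174, 4918 and 1248 CPM in mCKO. Ttn fell by 0.34 on the log2 scale with the block and was not called without the replicate 3 libraries (adjusted p = 0.060). Kbtbd13, a muscle adaptor of ubiquitin ligases, fell from 6.99, 5.95 and 6.26 CPM to 2.85, 3.97 and 4.12 CPM (-0.82 ± 0.18). Trim72, a membrane repair protein of muscle, fell from 538, 527 and 486 CPM to 464, 439 and 379 CPM (-0.28 ± 0.06), and an antisense gene covers 27.6% of its exons. Without the replicate 3 libraries 2 scaffold and 3 ubiquitin genes were lower. Scaling by library sizes alone, with the block, gave 2 higher and 3 lower scaffold genes, and 1 higher and 3 lower ubiquitin genes.

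The largest share of lower calls among the lists was in fatty acid oxidation (73.9%), followed by cardiomyocyte markers (8 of 16) and the citric acid cycle (48.4%). Of 23 genes of the carnitine shuttle and beta-oxidation 17 fell and 0 rose, with a median of -0.30 against 0.00 over all tested genes. The median was -0.34, -0.25 and -0.34 within replicate numbers 1, 2 and 3, and 15 genes were lower without the replicate 3 libraries. Cpt2, which frees acyl-CoA inside the mitochondrion, fell from 295, 315 and 267 CPM to 215, 230 and 211 CPM (-0.41 ± 0.06). Crat, carnitine acetyltransferase, fell from 906, 907 and 884 CPM to 653, 738 and 624 CPM (-0.42 ± 0.07). Etfdh, which passes electrons from beta-oxidation to ubiquinone, fell from 957, 899 and 848 CPM to 698, 758 and 591 CPM (-0.41 ± 0.07). For these 3 genes every mCKO library lay below every control.

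Upstream of oxidation, 5 of 16 genes of fatty acid uptake and activation fell and 1 rose (median -0.02). Slc27a1, a fatty acid transporter, fell from 316, 313 and 158 CPM to 224, 212 and 104 CPM (-0.55 ± 0.06), and Acot1, a cytosolic acyl-CoA thioesterase, from 19, 16.1 and 26.1 CPM to 10.1, 10.5 and 12.1 CPM (-0.89 ± 0.11). Acsl6, an acyl-CoA synthetase typical of brain, rose from 13.4, 15.9 and 7.32 CPM to 31.5, 21 and 14.6 CPM, and was not called without the replicate 3 libraries (adjusted p = 0.067). Among genes of triglyceride synthesis and lipolysis 6 of 20 fell and 1 rose (median -0.17). Plin5, which ties lipid droplets to mitochondria, fell from 238, 195 and 179 CPM to 146, 150 and 143 CPM (-0.47 ± 0.08).

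The pathways that receive acetyl-CoA and electrons also gave lower calls. In the citric acid cycle and pyruvate oxidation 15 of 31 genes fell and 0 rose (median -0.21), among them Ogdh of the oxoglutarate dehydrogenase complex, from 3280, 3233 and 3394 CPM to 2615, 2815 and 2540 CPM. Suclg2, a subunit of succinyl-CoA ligase, fell from 210, 199 and 179 CPM to 160, 162 and 138 CPM (-0.36 ± 0.06). Of 35 nuclear genes of complex I 8 fell and 0 rose (22.9% lower, median -0.15). Lower calls made up 6.45% of all tested genes and 18.2% of those above average log2 CPM 7, so the complex I share was near that of abundant genes. The complex I medians were -0.24, -0.13 and -0.06 in replicate numbers 1, 2 and 3. Scaling by library sizes alone, with the block, left 8 citric acid cycle and 3 complex I genes lower, against 10 and 8 without the replicate 3 libraries. Complex I genes were also high in replicate 3, with a median shift of 0.30 among CTR1 and 0.44 among mCKO libraries.

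Breakdown of ketone bodies and branched-chain amino acids gave 10 lower and 0 higher calls of 23 (median -0.16). Both subunits of the branched-chain keto acid dehydrogenase fell, Bckdha from 416, 413 and 412 CPM to 303, 302 and 271 CPM (-0.50 ± 0.06) and Bckdhb from 66.1, 61.7 and 69 CPM to 50.5, 50.7 and 47 CPM (-0.41 ± 0.07). Mccc2, of leucine breakdown, fell from 87.4, 92.4 and 79.7 CPM to 65, 69.9 and 56.2 CPM. The 3 genes were tightly grouped in CTR1 and did not overlap with mCKO.

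Glycolysis and glycogen genes did not share a direction, with 3 higher and 2 lower calls of 29 (10.3% and 6.9%, median -0.07). Eno1, the enolase of most tissues outside adult muscle, rose from 178, 195 and 166 CPM to 291, 300 and 240 CPM (0.62 ± 0.07, adjusted p = 2.7e-04). Pfkp, the platelet form of phosphofructokinase, rose from 100, 91.8 and 76.8 CPM to 139, 164 and 121 CPM, and a gene on the opposite strand covers 17.4% of its exons. Pygm, the muscle glycogen phosphorylase, fell from 1708, 1741 and 1528 CPM to 1350, 1387 and 1185 CPM (-0.34 ± 0.06), and Phka1, a subunit of the kinase that activates it, from 86.4, 77 and 134 CPM to 48.1, 51.1 and 56.4 CPM. In the creatine shuttle 3 of 16 genes rose and 3 fell, with Ckmt2, the mitochondrial creatine kinase of striated muscle, falling from 2936, 2930 and 2849 CPM to 2040, 2327 and 2283 CPM.

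Regulators of these pathways fell in part. Of 20 PPAR, ERR and PGC-1 regulators 6 fell and 0 rose (median -0.18), and 2 were lower without the replicate 3 libraries. Those 2 were Esrra, the nuclear receptor ERR alpha, which fell from 234, 211 and 228 CPM to 159, 167 and 161 CPM (-0.47 ± 0.07), and Perm1, a muscle regulator that PGC-1 and ERR induce, which fell from 592, 572 and 477 CPM to 461, 453 and 331 CPM. Neither overlapped between the groups. In promoter windows of 250 bases before the start, the ERR motif CAAGGTCA, searched on both strands, was found in 438 of 32851 windows (1.33%). It was found in 0 of 19 windows of beta-oxidation genes, 0 of 27 of the citric acid cycle and 1 of 31 of complex I. At a share of 1.33%, lists of this size would hold few or no matches, so these counts cannot set the genes apart from others.

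Mitochondrial upkeep genes gave 6 lower and 0 higher calls in each of 2 lists. These were 42 mitochondrial ribosomal proteins (14.3% lower, median -0.07) and 21 genes of dynamics and mitophagy (28.6% lower, median -0.17). Over all tested genes 6.45% were called lower, with 9.65% of those between average log2 CPM 5 and 7 and 18.2% of those above 7. Pink1, the kinase that marks damaged mitochondria, fell from 869, 822 and 971 CPM to 671, 606 and 647 CPM (-0.47 ± 0.06). Opa1, which fuses inner membranes, fell from 284, 274 and 212 CPM to 225, 226 and 161 CPM (-0.33 ± 0.06). Without the replicate 3 libraries 2 ribosomal proteins and 4 dynamics genes were lower. Scaling by library sizes alone, with the block, gave 3 lower and 2 higher calls among the ribosomal proteins, whose median was then 0.00, and 3 lower and 0 higher among the dynamics genes (median -0.09).

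The amino acid stress response moved mainly upward. ATF4 is a transcription factor that stress kinases induce through translation and that activates amino acid synthesis. Of 25 genes of its pathway 9 rose and 2 fell (median 0.38), and without the replicate 3 libraries 12 were higher and 0 lower. The medians within replicate numbers were 0.51, 0.53 and 0.00, so pair 3 showed no shift of the list. Phgdh, the first enzyme of serine synthesis, went from 1.27, 0.731 and 0.973 CPM to 8.06, 3.52 and 1.93 CPM (2.06 ± 0.31), with the smallest step in replicate 3. Psat1, the next enzyme, went from 4.45, 2.87 and 4.36 CPM to 10.3, 6.48 and 5.54 CPM (0.90 ± 0.19). Pycr1, which makes proline, went from 1.17, 1.72 and 1.16 CPM to 6.92, 4.17 and 3.19 CPM (1.78 ± 0.26). Chac1, which degrades glutathione, rose from 1.71, 2.45 and 4.59 CPM to 5.65, 4.77 and 6.51 CPM, and Ddit4, an inhibitor of mTORC1, fell by 0.83 on the log2 scale but was not called without the replicate 3 libraries (adjusted p = 0.42). No cytosolic tRNA synthetase was called of 20 tested by edgeR's quasi-likelihood test (median 0.05).

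The amino acid response motif TTGCATCA, which ATF4 binds, was searched on both strands of the 250 bases before each start. It was found in 260 of 32851 RefSeq promoter windows (0.791%), in 5 of 23 windows of the ATF4 list, in 8 of 754 windows of genes called higher (1.06%) and in 7 of 704 of genes called lower (0.994%). Of the 5 list genes with a match Chac1 and Pycr1 rose, Vldlr fell (not called without the replicate 3 libraries, adjusted p = 0.089), and Atf3 and Nupr1 were not called. Of the 18 without a match 6 rose and 1 fell. The window of Pycr1, which rose and whose window overlaps no annotated exon, is shown with the match in capitals, on the minus strand at chr11:120643749-120643998 of GRCm38.p6, from RefSeq.
Pycr1: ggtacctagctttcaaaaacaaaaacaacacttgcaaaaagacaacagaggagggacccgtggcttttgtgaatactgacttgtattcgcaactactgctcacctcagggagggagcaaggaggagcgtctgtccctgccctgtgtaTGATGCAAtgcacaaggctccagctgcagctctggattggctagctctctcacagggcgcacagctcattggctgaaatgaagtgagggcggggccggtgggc
The match lies 96 bases before the start, on the strand opposite to the one shown. A match describes letters only and says nothing of binding.

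Targets of p53, the DNA damage and stress factor for which DDX5 is a known coactivator, rose for 15 of 24 tested genes and fell for 0 (median 0.40). The medians within replicate numbers were 0.39, 0.39 and 0.48, and 11 were higher without the replicate 3 libraries. Phlda3, an inhibitor of Akt, rose from 14.6, 12.4 and 19.6 CPM to 42, 59.6 and 73.1 CPM (1.89 ± 0.13). Eda2r, a receptor of the TNF family, rose from 3.57, 3.13 and 3.66 CPM to 10.6, 13.9 and 13.2 CPM (1.85 ± 0.15, adjusted p = 5.4e-05). Gdf15, a stress hormone of the TGF-beta family that is also in the ATF4 list, rose from 1.12, 1.10 and 1.39 CPM to 6.35, 4.27 and 4.33 CPM (2.03 ± 0.23). Trp53inp1, a stress-induced partner of p53, rose from 11.3, 15.4 and 14.8 CPM to 21.1, 21.8 and 22.1 CPM (0.66 ± 0.10). For Trp53inp1 the groups did not overlap. Phlda3, Eda2r and Gdf15 are leading genes, whose choice required groups without overlap.

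Cell death genes of the Bcl2 family and others gave 6 higher and 1 lower call of 29 (median 0.20). Bid, which links death receptors to mitochondria, rose from 1.66, 1.57 and 1.85 CPM to 3.07, 4.02 and 3.61 CPM (1.06 ± 0.21), and the protective Bcl2 from 7.63, 9.92 and 9.87 CPM to 17.2, 13.8 and 11.9 CPM (0.64 ± 0.17). Cell cycle genes gave 5 higher and 0 lower calls of 28 (median 0.24), and 0 without the replicate 3 libraries, where edgeR gave 5 an unadjusted p under 0.05.

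Antioxidant genes did not share a direction, with 4 higher and 3 lower calls of 26 (median 0.02). Nqo1, a quinone reductase and classic NRF2 target, fell from 70.2, 64.3 and 73 CPM to 39.7, 31.9 and 34.9 CPM (-0.97 ± 0.07, adjusted p = 3.9e-05). Hmox1, heme oxygenase 1, another NRF2 target, rose from 6.41, 6.27 and 12.5 CPM to 11.4, 8.85 and 18.9 CPM (0.64 ± 0.12). Sod3, extracellular superoxide dismutase, rose from 33.5, 30.1 and 68.4 CPM to 51, 50.9 and 101 CPM (0.64 ± 0.07). Hmox1 and Sod3 were high in replicate 3 of both groups, and Nqo1 was not. Mt3, a metallothionein, rose from 0.685, 0.731 and 0.881 CPM to 2.76, 2.86 and 3.91 CPM (2.04 ± 0.25).

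Beside the muscle ubiquitin ligases described above, lists of protein turnover are set against 7.32% higher and 6.45% lower calls over all tested genes. Proteasome subunits gave few calls, 1 higher and 1 lower of 36 (2.78% each). Lysosome and autophagy genes gave 3 and 3 of 31 (9.68% each). Heat shock proteins with their cochaperones gave 2 and 1 of 24 (8.33% and 4.17%). The last 2 lists were near the shares of all tested genes. The higher proteasome call was Psmb9, an interferon-induced immunoproteasome subunit, from 28.1, 25.5 and 12.3 CPM to 46, 42.6 and 14 CPM (0.57 ± 0.11), and Tap1 on the opposite strand covers 15.7% of its exons. Hsp90aa1, the inducible cytosolic HSP90, rose from 96.4, 81.9 and 101 CPM to 121, 152 and 140 CPM (0.56 ± 0.10).

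The lists of immune cells and interferon responses held many higher calls, and 4 of the 5 held no lower call. Macrophage markers rose for 10 of 17 tested genes (median 0.53), complement genes for 14 of 23 (0.55), antigen presentation genes for 14 of 23 (0.61) and interferon-stimulated genes for 19 of 40 (0.63). Chemokines, cytokines and their receptors gave 12 higher and 1 lower call of 36 (0.46). Without the replicate 3 libraries the higher calls were 6, 7, 15, 25 and 8 in the same order. Macrophage and complement calls thus became fewer and interferon calls more numerous.

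Among macrophage genes Csf1r, the receptor for macrophage colony-stimulating factor, rose from 65, 70.5 and 78.4 CPM to 107, 95.5 and 120 CPM (0.59 ± 0.07, adjusted p = 5.1e-04). A gene on the opposite strand covers 17.9% of the exons of Csf1r. Fcgr1, the high-affinity receptor for immunoglobulin G, rose from 3.13, 3.45 and 4.50 CPM to 7.67, 7.44 and 9.20 CPM (1.14 ± 0.15), and Cd68, a lysosomal marker of macrophages, from 10.5, 11.5 and 15.3 CPM to 18.1, 17.4 and 29.7 CPM (0.79 ± 0.10). In these genes all mCKO libraries lay above all controls. The complement subunit C1qb rose from 57.5, 57.9 and 83.3 CPM to 93.8, 79.7 and 135 CPM (0.62 ± 0.07). Csf1, the ligand of Csf1r, rose from 88.5, 95 and 67.1 CPM to 119, 122 and 80.1 CPM (0.35 ± 0.06). Lif, a cytokine of the interleukin 6 family, rose from 0.196, 0.366 and 0.464 CPM to 2.28, 1.86 and 1.64 CPM (2.46 ± 0.38).

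**Figure D5:**
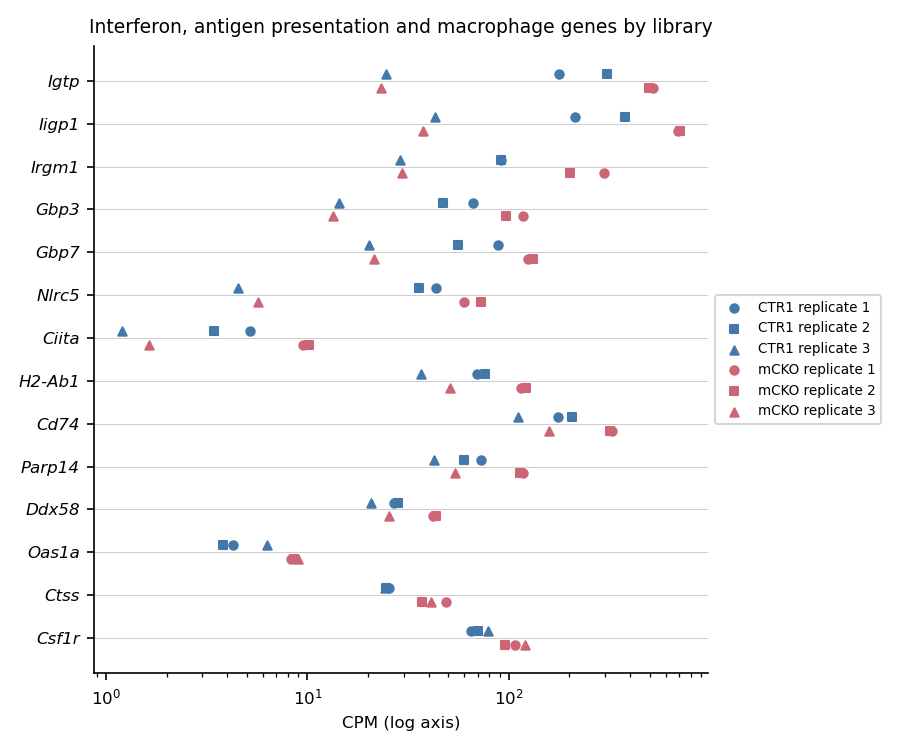
CPM of 14 interferon, antigen presentation and macrophage genes in each library (log axis), colour for the group and shape for the replicate number. Triangles, replicate 3 of both groups, lie far to the left for Igtp (24.5 and 23.1 CPM) and for Iigp1, Irgm1, Gbp3, Gbp7, Nlrc5 and Ciita. For Oas1a and Csf1r the triangle is the highest library of each group, and for Ctss it lies close to the others of its group.

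Many interferon genes differed between replicate 3 and the other replicates as well as between the groups. Igtp, an interferon-inducible GTPase of cell-autonomous immunity, was measured at 178, 306 and 24.5 CPM in CTR1 and at 521, 498 and 23.1 CPM in mCKO. Its relative Iigp1 was at 212, 378 and 43.1 CPM in CTR1 and 691, 710 and 37.5 CPM in mCKO, and Irgm1 at 91.9, 91.7 and 28.8 CPM in CTR1 and 296, 200 and 29.5 CPM in mCKO. In replicates 1 and 2 mCKO was above CTR1 for all 3 genes, while in replicate 3 both groups were low and near each other. With the block the differences were 0.78 ± 0.43 for Igtp (adjusted p = 0.40), 0.85 ± 0.52 for Iigp1 (0.44) and 1.01 ± 0.45 for Irgm1 (0.32), none of them called. Over the 40 interferon genes the median difference was 0.76, 0.68 and 0.23 in replicate numbers 1, 2 and 3, and over the antigen presentation genes it was 0.82, 0.63 and 0.21. Both lists were low in replicate 3, and against the other two replicates the median difference for interferon genes was -0.65 among CTR1 and -1.0 among mCKO libraries, and -0.96 and -1.31 for antigen presentation. Macrophage markers stood higher in replicate 3, by 0.21 and 0.36. What sets the interferon level of a library was not tested.

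Antigen presentation genes that were called followed the same order of libraries. Cd74, the invariant chain of MHC class II, rose from 175, 205 and 111 CPM to 326, 319 and 159 CPM (0.68 ± 0.08, adjusted p = 4.6e-04), and H2-Ab1, a class II chain, from 69.3, 76.1 and 36.8 CPM to 115, 122 and 51.1 CPM (0.63 ± 0.07). Ciita, the master regulator of class II genes, rose from 5.18, 3.45 and 1.21 CPM to 9.55, 10.2 and 1.64 CPM (1.06 ± 0.20). Nlrc5, the corresponding regulator of class I genes, rose from 43.7, 35.8 and 4.54 CPM to 59.6, 72.7 and 5.71 CPM (0.66 ± 0.13, adjusted p = 0.016). The lowest mCKO level of each was replicate 3 and lay below controls 1 and 2. Ctss, a protease that trims Cd74, did not follow replicate 3 and rose from 25.3, 24.6 and 24.3 CPM to 48.9, 37 and 40.9 CPM (0.77 ± 0.08).

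Several RNA sensors and effectors of the interferon response also rose. Ddx58, which encodes the RIG-I sensor of viral RNA, rose from 26.9, 28.2 and 20.7 CPM to 42.2, 43.5 and 25.5 CPM (0.53 ± 0.09). Parp14, an ADP-ribosyltransferase, rose from 72.7, 59.9 and 42.3 CPM to 118, 113 and 54.3 CPM (0.66 ± 0.10). Oas1a, an oligoadenylate synthetase activated by double-stranded RNA, rose from 4.26, 3.81 and 6.30 CPM to 8.28, 8.54 and 8.99 CPM (0.86 ± 0.16), without overlap of the groups. Irf9, a subunit of the factor that binds interferon response elements, rose from 36.9, 42 and 21.6 CPM to 51.3, 58.7 and 26.9 CPM (0.43 ± 0.07).

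The interferon-stimulated response element, taken as GAAA, any 2 bases and GAAA again, was searched on both strands of the 250 bases before each start, since these genes move together. It was found in 978 of 32851 RefSeq promoter windows (2.98%), in 36 of 754 windows of genes called higher (4.77%) and in 19 of 704 of genes called lower (2.70%). In the interferon list 16 of 30 windows held it (53.3%), and in the antigen presentation list 4 of 18 (22.2%). By edgeR with the block, of the 16 interferon genes with a match Oas1a and Oas3 rose and 14 were not called, and 12 of the 14 without a match rose. The split was made for that fit only, so whether it holds in other fits was not tested. Over all 40 interferon genes, edgeR with the block called 19 higher, DESeq2 with the block 17 and limma-voom with the block 31. Without the replicate 3 libraries edgeR called 25 higher. In the antigen presentation list 2 of 4 with a match and 7 of 14 without one rose. The windows of Oas1a and Ctss, which rose without overlap, and of Igtp, which was low in replicate 3 of both groups, are shown to set the promoters of these patterns side by side, with matches in capitals. They lie in GRCm38.p6 at chr5:120907526-120907775 (Oas1a, minus strand), chr3:95526536-95526785 (Ctss, plus strand) and chr11:58199306-58199555 (Igtp, plus strand), from RefSeq.
Oas1a: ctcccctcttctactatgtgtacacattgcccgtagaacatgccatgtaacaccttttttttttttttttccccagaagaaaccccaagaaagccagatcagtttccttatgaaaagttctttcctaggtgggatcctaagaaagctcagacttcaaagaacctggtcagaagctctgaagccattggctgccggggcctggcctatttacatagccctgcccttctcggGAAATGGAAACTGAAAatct
Ctss: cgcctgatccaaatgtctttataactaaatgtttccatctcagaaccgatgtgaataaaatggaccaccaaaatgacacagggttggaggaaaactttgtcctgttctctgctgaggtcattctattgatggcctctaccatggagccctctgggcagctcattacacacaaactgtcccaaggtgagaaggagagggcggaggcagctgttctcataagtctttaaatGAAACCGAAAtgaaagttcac
Igtp: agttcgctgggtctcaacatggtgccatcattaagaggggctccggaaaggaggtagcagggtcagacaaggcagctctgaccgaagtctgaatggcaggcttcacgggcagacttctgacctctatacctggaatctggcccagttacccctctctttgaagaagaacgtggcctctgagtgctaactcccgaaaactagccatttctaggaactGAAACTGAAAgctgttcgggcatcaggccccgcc
Oas1a holds 2 overlapping matches, 5 bases before its start, and Ctss and Igtp 1 each, 12 and 25 bases before theirs. These windows were picked among genes that hold the element, so its presence in both patterns was fixed by that choice.

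Several lists of matrix genes held higher calls. Of 22 collagen chains 12 rose and 0 fell (median 0.36), of 32 matricellular and glycoprotein genes 14 rose and 0 fell (median 0.33), and of 22 genes for collagen processing 7 rose and 1 fell (median 0.14). Without the replicate 3 libraries the higher calls were 8, 7 and 3. Col3a1, a fibrillar collagen of scar and vessel wall, rose from 126, 148 and 223 CPM to 267, 216 and 340 CPM (0.74 ± 0.10), and Col14a1, a collagen bound to fibrils, from 11.2, 13.1 and 17.5 CPM to 24.9, 17.8 and 27.9 CPM (0.76 ± 0.13). Postn, a protein of activated fibroblasts, rose from 21.8, 18.7 and 36.4 CPM to 35.1, 27 and 51.2 CPM (0.57 ± 0.08). Timp1, an inhibitor of metalloproteinases, rose from 1.71, 2.35 and 10.5 CPM to 4.38, 7.14 and 30.4 CPM (1.51 ± 0.13, adjusted p = 9.1e-05). Pcolce, which speeds the processing of procollagen, rose from 55.2, 47.7 and 65.5 CPM to 78.9, 90.0 and 122 CPM (0.78 ± 0.08), and Fkbp10, a chaperone of procollagen, fell from 34.5, 34.2 and 37 CPM to 25.3, 24.1 and 26.3 CPM.

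Replicate 3 was the highest library of its group for each of the 6 matrix genes named above. Matricellular genes stood higher in replicate 3 (median 0.98 among CTR1 and 0.90 among mCKO libraries), as did fibroblast markers (0.94 and 0.86). Within replicate numbers the matricellular median was 0.36, 0.31 and 0.36, so the step from CTR1 to mCKO was of like size in all 3 pairs. Of 27 metalloproteinases and inhibitors 4 rose and 0 fell, and of 27 genes of the TGF-beta, BMP and activin pathway 3 rose and 0 fell, with 0 calls by edgeR in the latter without the replicate 3 libraries (3 higher and 2 lower at an unadjusted p under 0.05).

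Signalling lists are set against 7.32% higher and 6.45% lower calls over all tested genes. Angiotensin, endothelin and adrenergic genes gave 2 higher and 2 lower calls of 30 (6.67% each, median 0.03), near those shares. Adra1b, the alpha-1B adrenergic receptor, fell from 76.1, 69.5 and 70.5 CPM to 43.9, 44 and 42.6 CPM (-0.73 ± 0.07, adjusted p = 1.1e-04). Edn3, endothelin 3, rose from 1.81, 1.62 and 4.26 CPM to 4.38, 6.18 and 10.8 CPM (1.49 ± 0.18). Both pairs of groups were free of overlap, and the Adra1b levels differed by less than 10 CPM within each group. Pde4a, a phosphodiesterase that degrades cAMP, fell from 150, 135 and 110 CPM to 99.2, 95.2 and 93.7 CPM.

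Diacylglycerol and phosphoinositide genes gave 5 higher and 3 lower calls of 27 (18.5% and 11.1%, median -0.01). Beside Dgki and Prkcq, Prkcd, another protein kinase C isoform, rose from 25.1, 26.2 and 23.9 CPM to 41, 40.1 and 38 CPM (0.66 ± 0.07, adjusted p = 3.5e-04). The kinases Dgkz and Dgke, which share the reaction of Dgki, fell, Dgkz from 176, 186 and 93.2 CPM to 138, 129 and 77 CPM and Dgke from 43.5, 43 and 31.2 CPM to 30.9, 31.5 and 25.9 CPM. The 3 kinases of this reaction thus did not share a direction. Growth factor genes gave 4 higher and 2 lower calls of 32 (12.5% and 6.25%). Among them Grb14, an inhibitor of the insulin receptor, fell from 219, 216 and 188 CPM to 144, 156 and 142 CPM (-0.49 ± 0.07).

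Nuclear and RNA-processing lists differed in their share of lower calls, which was 6.45% over all tested genes. Cardiac transcription factors gave 0 higher and 4 lower calls of 24 (16.7% lower, median -0.07). Without the replicate 3 libraries edgeR gave 0 calls among them (3 higher and 5 lower at an unadjusted p under 0.05). Muscle splicing regulators gave 1 higher and 4 lower calls of 27 (14.8% lower, median -0.08), of which Rbfox1 was the largest. Khdrbs3, a STAR-family splicing regulator, fell from 83.4, 76.5 and 72.1 CPM to 50.7, 57.4 and 58.1 CPM (-0.48 ± 0.08). Of 34 DEAD-box and DEAH-box helicases other than Ddx5, 2 rose (5.88%), Ddx17 and Ddx58, and 1 fell (2.94%). The fallen gene was Eif4a2, a helicase of translation initiation, from 322, 318 and 306 CPM to 229, 240 and 220 CPM (-0.46 ± 0.06), with no overlap. Camk2d, the calcium/calmodulin kinase whose splicing the study addressed, was at 231, 238 and 137 CPM in CTR1 and 212, 212 and 129 CPM in mCKO (-0.13 ± 0.06, adjusted p = 0.21), and its isoforms are not separated by gene counts.

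The ribosomal pair Rpl3 and Rpl3l moved in opposite directions. Rpl3l, the form of striated muscle, fell from 311, 320 and 322 CPM to 151, 188 and 221 CPM (-0.78 ± 0.09, adjusted p = 7.1e-04). Rpl3, the common form, rose from 191, 160 and 256 CPM to 254, 236 and 346 CPM (0.47 ± 0.06). Rpl3l did not overlap between the groups and kept its call without the replicate 3 libraries (-0.90), as did Rpl3 (0.48). The other genes of ribosome biogenesis in this list were not called. Skeletal muscle markers gave 5 higher and 1 lower call of 9, with Tnni2, fast troponin I, rising from 2.64, 1.72 and 2.18 CPM to 4.73, 4.42 and 6.64 CPM, while Myh2 and Actn3, defining genes of fast fibres, stayed below 1 CPM in all 6 libraries.

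Markers of cell types were counted beside these results. Of 16 cardiomyocyte markers 8 fell and 0 rose (median -0.18), and their summed level ranged from 93051 to 128663 CPM in CTR1 and from 80330 to 115220 CPM in mCKO. Tnni3, cardiac troponin I, fell from 4834, 4967 and 5366 CPM to 3733, 3547 and 4094 CPM. Fibroblast markers rose for 8 of 14 genes (median 0.37, summed 2581 to 3994 CPM in CTR1 and 2698 to 4719 CPM in mCKO). Summed macrophage markers ranged from 535 to 817 CPM and from 685 to 1341 CPM. Endothelial markers gave 1 higher and 1 lower call of 17 (median 0.06), pericyte and smooth muscle markers 1 and 1 of 14, and markers of lymphocytes, granulocytes and mast cells 0 of 12. Schwann cell and neuronal markers gave 3 higher calls, Ncam1 among them, and 1 lower, Dbh, of 14 (median 0.56). Their medians were -0.33, 0.53 and 1.22 in replicate numbers 1, 2 and 3. Their summed level ranged from 53 to 63.3 CPM in CTR1 and from 70.5 to 110 CPM in mCKO. No marker in the table was at 0 in all 6 libraries. The part of a changed share of these cells in the metabolic, immune and matrix results was not tested.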

How the data were processed

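The authors deposited 2 tables of unnormalised whole-number counts per gene, with mCKO and CTR1 in one and iCKO and CTR2 in the other. The libraries were made with a stranded mRNA kit from Trizol-extracted RNA, per the labels' protocols. Per the submitters' processing notes, HISAT2 and DESeq were used with the build GRCm38. The sources used here do not name versions, annotation, counting tool or strand use. Library totals lay between 19682268 and 22664459 counts. Groups and replicate numbers come from the titles and genotype labels.

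The deposited counts were turned into CPM and log2 CPM (prior count 2) with TMM factors. Genes kept by filterByExpr (minimum count 10, minimum total 15) were tested with edgeR 4.0.16 (robust quasi-likelihood) in R 4.3.3, with two-sided Benjamini-Hochberg adjusted p-values called at 0.05, without and with the replicate number as a block. Deviations from the group means correlated within numbers 1, 2 and 3 at r = 0.464, 0.532 and 0.823, above the limit of 0.1 set for pairing, so genes and lists are described with the block. Numbers 1 and 2 also correlated with each other (0.553 and 0.529), so the pairing in the data is that of replicate 3. No pair of libraries in a group agreed within sampling noise (chi-square per degree of freedom 6.25 and 9.16 for replicates 1 and 2 of CTR1 and mCKO).

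The experiment, its gene lists (56) and the rule for named genes were chosen with earlier results of these data known. The rule took Ddx5, Ddx17, Camk2d and the neighbours of Ddx5, the 20 leading genes per direction (called with the block, average log2 CPM of at least 1, groups not overlapping, no clone symbol), up to 6 called members per list (or its 2 most abundant, if under 2 were called), the 10 most abundant calls per direction, the 10 genes highest and the 10 lowest in replicate 3, and members whose promoters are shown. It gave 320 genes, and those named were picked among them after their values were seen. Irgm1, Myl4, Myl7, Sln, Myh2, Actn3, Vldlr, Atf3, Nupr1 and Oas3 fall outside the rule and were chosen after their values were seen. A few genes that the rule gave are not reported here. The promoters of Igtp and Ctss were likewise picked after their values were seen. Exon lengths and overlaps come from GENCODE M21 on GRCm38, promoters from RefSeq GRCm38.p6. The fits were tested on simulated counts. DESeq2 1.42.0, limma-voom (limma 3.58.1), library-size scaling, no filter and left-out libraries were alternatives.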

Additional observations from a re-analysis of the deposited data

Results flagged for a closer look

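Of the leading genes of the constitutive deletion, 4 moved the opposite way in the tamoxifen-induced one, with every library of each experiment on the side of its own direction. In both experiments the groups without overlap were a condition of the choice of these genes. Wdr72, a WD-repeat gene known from enamel formation, rose in mCKO by 2.47 and was at -1.54 in iCKO against CTR2 on the log2 scale. Cacna1h, the T-type calcium channel, stood at 1.82 in mCKO and -0.723 in iCKO. Prkcq, the protein kinase C isoform, stood at 1.82 and -1.05, and Ano5, a membrane protein of the anoctamin family, at 1.67 and -1.92. The difference between the experiments was not tested for these genes, and treatment and the form of Cre differ between them, so these cannot be told apart. The labels read here give an age only for the constitutive experiment.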

How the results depend on the processing

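Without the replicate block 0 genes were called in either direction. That count became 978 higher and 861 lower with the replicate block, 176 and 134 with DESeq2, 3 and 1 with no filter, and 514 and 526 without both replicate 3 libraries. Leaving out 1 library in turn gave 0 to 1 higher and 0 to 0 lower calls, the 1 being without mCKO replicate 3, and library-size scaling and limma-voom gave 0. With the block the counts of 978 and 861 became 0 and 0 with no replicate block, 499 and 548 with DESeq2, and 1581 and 474 with library sizes only. Leaving out 1 replicate number with the block kept gave 218 to 766 higher and 170 to 742 lower calls, lowest without replicate 3 (218 and 170) and 646 and 447 without replicate 2. Ddx5 had -1.26 with the block (adjusted p = 0.0019), -1.30 with DESeq2 and no block (1.4e-06), -1.45 without both replicate 3 libraries (8.7e-06), and -1.48 to -1.18 without 1 library in turn and no block (0.083 to 0.82, never called). Of the leading genes, 9 to 10 higher and 15 to 16 lower were called in iCKO under its alternatives.

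Of 124 named genes called with the block, all were uncalled with no replicate block, 12 without both replicate 3 libraries, 7 without replicate 1, 14 without replicate 2 and 3 with library sizes only, and none of these changed sign. Without replicate 1 the calls of Ctnnb1, Kbtbd13, Phka1, Bcl2, Parp14, Oas3 and Milr1 were lost, and without replicate 2 those of Ctnnb1, Trim72, Cacna1c, Dmd, Pam, Nlrc5, Psmb9, Bcl2, Ciita, Milr1, Bid, Oas3, Vldlr and Slc9a3. Library-size scaling lost Ctnnb1, Cav3 and Vldlr. The causes were not tested. Among genes uncalled with the block, signs changed for Myl4 (-0.36, and 0.73 without replicate 1, where it was called) and for genes near 0, namely Cytl1 (-0.0097 without replicate 1), Kpna2 (-0.052 without replicate 2), Smurf2 (0.011 without replicate 1 and 0.066 with library sizes only) and Myh7b (0.022 with no replicate block, 0.027 without both replicate 3 libraries, 0.048 without replicate 1 and 0.068 with library sizes only). Genes below 1 CPM rest on few counts, and small changes in them were not detectable at this depth.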
